A study of Mus musculus with 9 samples.

Results

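Genomic imprinting leaves a gene expressed mainly from the chromosome of one parent, and many imprinted genes set the growth of the embryo and are turned down after birth. The 10 studied here were H19, Igf2, Dlk1, Meg3, Peg3, Mest, Cdkn1c, Grb10, Plagl1 and Peg10. Their members were all probe sets, the groups of short probes that an array reports as a single signal, annotated to exactly 1 of these symbols. The annotation gave 29 such probe sets to 9 of the 10 genes, out of 34945 probe sets with 1 symbol for 18193 genes. H19 had none, because its probe set was listed under H19 and Mir675 together, and that probe set is described apart. Of the 29 probe sets, 23 passed a filter on dim signals (a signal above 26.1 on at least 3 of 9 arrays, and at least 2 values per stage), and each of the 9 genes kept at least 1. The arrays measure RNA from both parental alleles together, so imprinting itself was not measured.

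The 9 arrays held RNA of mouse cells that the submitters took by laser microdissection as neural crest cells or their descendants. Of these, 3 arrays came from E8.5 embryos at the closing neural tube, 3 from dorsal root ganglia at E13.5 and 3 from the adrenal medulla of adults at postnatal day 90 (P90, 3 months). By the labels, the 3 samples of a stage are biological replicates. Strain, sex, genotype and the number of animals per sample were not given in the sources used here, so the p-values measure the spread between these samples only. Each stage came from another tissue, so stage and tissue cannot be told apart. The 3 comparisons share arrays and are not independent of each other.

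The labelled tissues were checked against marker genes. Pax3 and Wnt1, genes of the dorsal neural tube and neural crest, had signals of 671 to 1880 and 423 to 585 at E8.5, above every later array. Sox10, a factor of neural crest and glia, was higher at E13.5 (394 to 543) than at E8.5 (232 to 315). Isl1, a factor of sensory and sympathoadrenal neurons, ranged from 3150 to 5240 at E13.5 and reached 1880 and 1420 on P90 replicates 2 and 3. Of the other sensory neuron genes checked, Pou4f1 was empty on every E13.5 array and so gave no level there. Prph did not set E13.5 apart from P90 (82.0 to 101 against 88.5 to 129). In the test described below, 5 of 7 fitted sensory neuron genes were higher at E13.5 than at E8.5 (8.82% of all genes) and 0 lower. From E13.5 to P90, 2 of the 7 fell (5.4% of all genes) and 0 rose. The sum over 8 sensory neuron genes, Isl1 included, was 5012 to 7430 at E13.5 and 3256 at most on the other arrays. Pnmt, the adrenaline-forming enzyme, ranged from 633 to 3750 at P90 and was at most 46.1 on the embryonic arrays. P90 replicate 1 stood apart from the other P90 arrays. Over 8 chromaffin genes its summed signal was 12750 against 27130 and 26050, and over 4 adrenal cortex genes 8256 against 4829 and 4171. The cortex sum was nearly all Fdx1 (8170 against 4790 and 4150). Its sums over 11 mesenchyme genes (9500 against 3835 and 2704) and 9 endothelial genes (5582 against 1589 and 1308) were also the highest of the stage. On E13.5 replicate 2 the 3' probe set of Actb exceeded its 5' probe set by 7.0 on the log2 scale, against 0.85 to 4.82 on the other arrays, a measure that grows as RNA degrades. It was the lowest E13.5 array in 19 of 22 fitted member probe sets without an empty value, and P90 replicate 1 the lowest P90 array in 16 of 22. The part of these arrays in each result was not tested. Values without them are given where they change a call or move the change of a gene's leading (brightest) probe set by over 1.5 times.

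Meg3 was higher in ganglion and medulla than in the early embryo, Dlk1 was highest in the medulla, and Plagl1 and Mest were low there. From E8.5 to E13.5, 8 of 23 member probe sets passed the test, all higher and all of Meg3, where 15.0% of all 24013 probe sets fitted passed and 7.99% passed as higher. From E13.5 to P90, 5 of 23 passed (7.48% of all), 1 of Dlk1 higher (2.88% of all) and 4, of Igf2, Mest and both fitted probe sets of Plagl1, lower (4.6% of all). From E8.5 to P90, 10 of 23 passed (20.8% of all), 6 of Meg3 and 1 of Dlk1 higher (9.57% of all) and 1 each of Mest, Plagl1 and Grb10 lower (11.2% of all). Cdkn1c, Peg3 and Peg10 passed in no comparison. The test was limma's, on log2 of signal plus 16, with Benjamini-Hochberg adjustment over all probe sets fitted, and an adjusted p under 0.05 counted as passing. Changes are given as log2 ± SE on that scale, which understates those of dim probe sets.

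Because Meg3 holds 11 of the 23 probe sets, the counts were also taken over the brightest probe set of each gene. By that measure 1 of 9 genes passed from E8.5 to E13.5 (15.6% of 13748 genes), 4 of 9 from E13.5 to P90 (8.58%) and 4 of 9 from E8.5 to P90 (22.0%). The median change of the 9 was 0.42, -0.43 and -0.85, against 0.02, -0.05 and 0.0 over the brightest probe set of all genes. A difference between any stages was called for 12 of 23 probe sets (23.3% of all), and for 7 without E13.5 replicate 3 (17.3% of all).

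The counts depended on single arrays. In place of 8, the first comparison gave 3 without E8.5 replicate 2, without E8.5 replicate 3 or without E13.5 replicate 3, where the share called of all probe sets was 8.16%, 9.17% and 9.25% in place of 15.0%. It gave 5 without E13.5 replicate 1 (14.1% of all). With quantile normalization its 8 calls were 7 higher and 1 lower (18.9% of all). In place of 5, the second gave 3 without E8.5 replicate 1, 2 or 3 (6.94%, 5.51% and 5.58% of all, in place of 7.48%), 2 without P90 replicate 2 (4.73%), and 1 without P90 replicate 3 (4.96%) or without E13.5 replicate 3 (3.46%). In place of 10, the third gave 6 without E8.5 replicate 2, without P90 replicate 2 or without P90 replicate 3 (12.7%, 13.4% and 14.6% of all, in place of 20.8%). In each of these fits with an array left out, the share over all probe sets fell as well as the members' count.

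**Figure D1:**
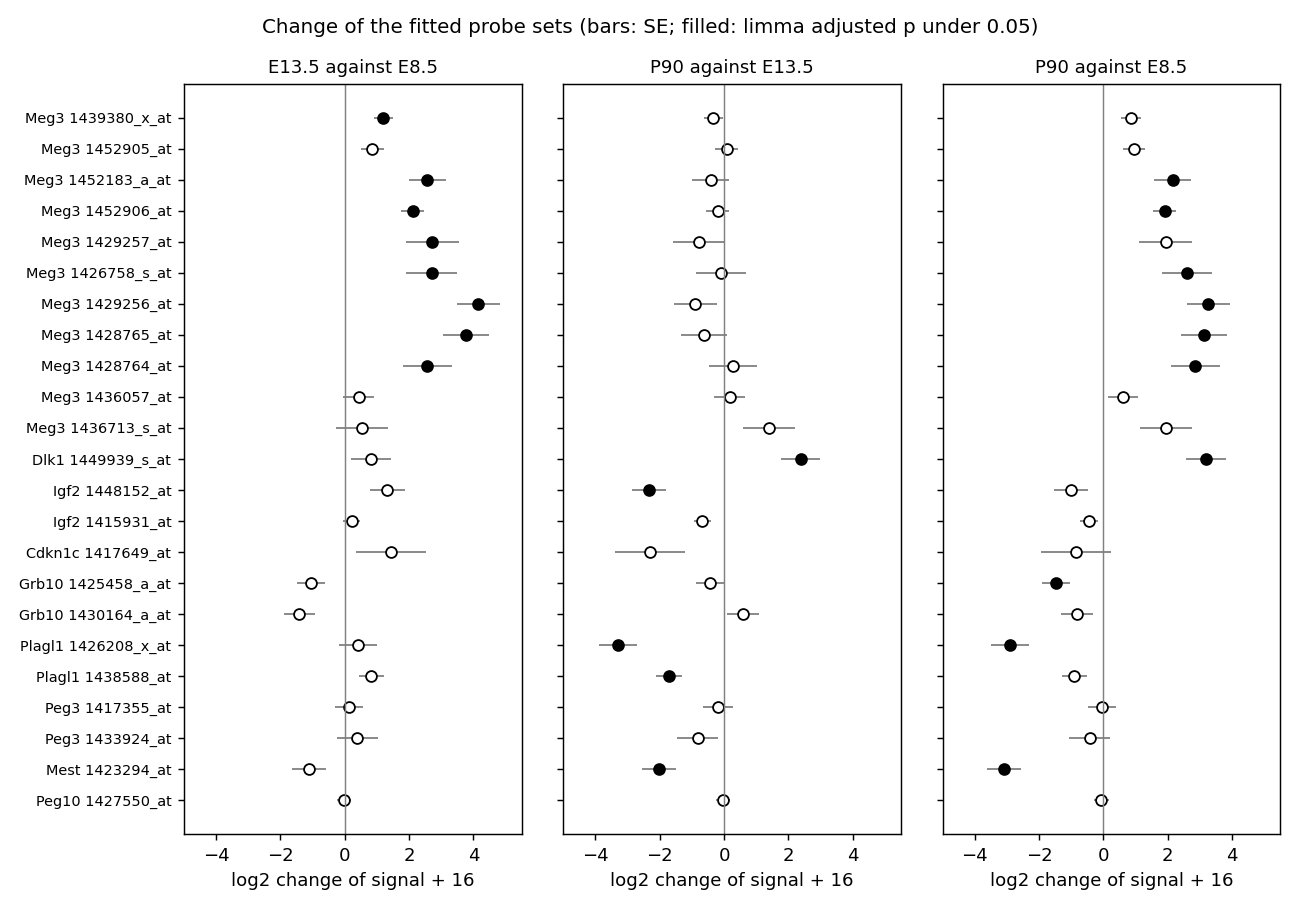
Log2 change of signal plus 16 of the 23 fitted probe sets in each comparison, with bars for the SE and filled points where limma's adjusted p was under 0.05. The filled points of the first panel are all Meg3; Dlk1 is filled on the right and Mest and the brighter Plagl1 probe set on the left in both comparisons with P90.

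**Figure D2:**
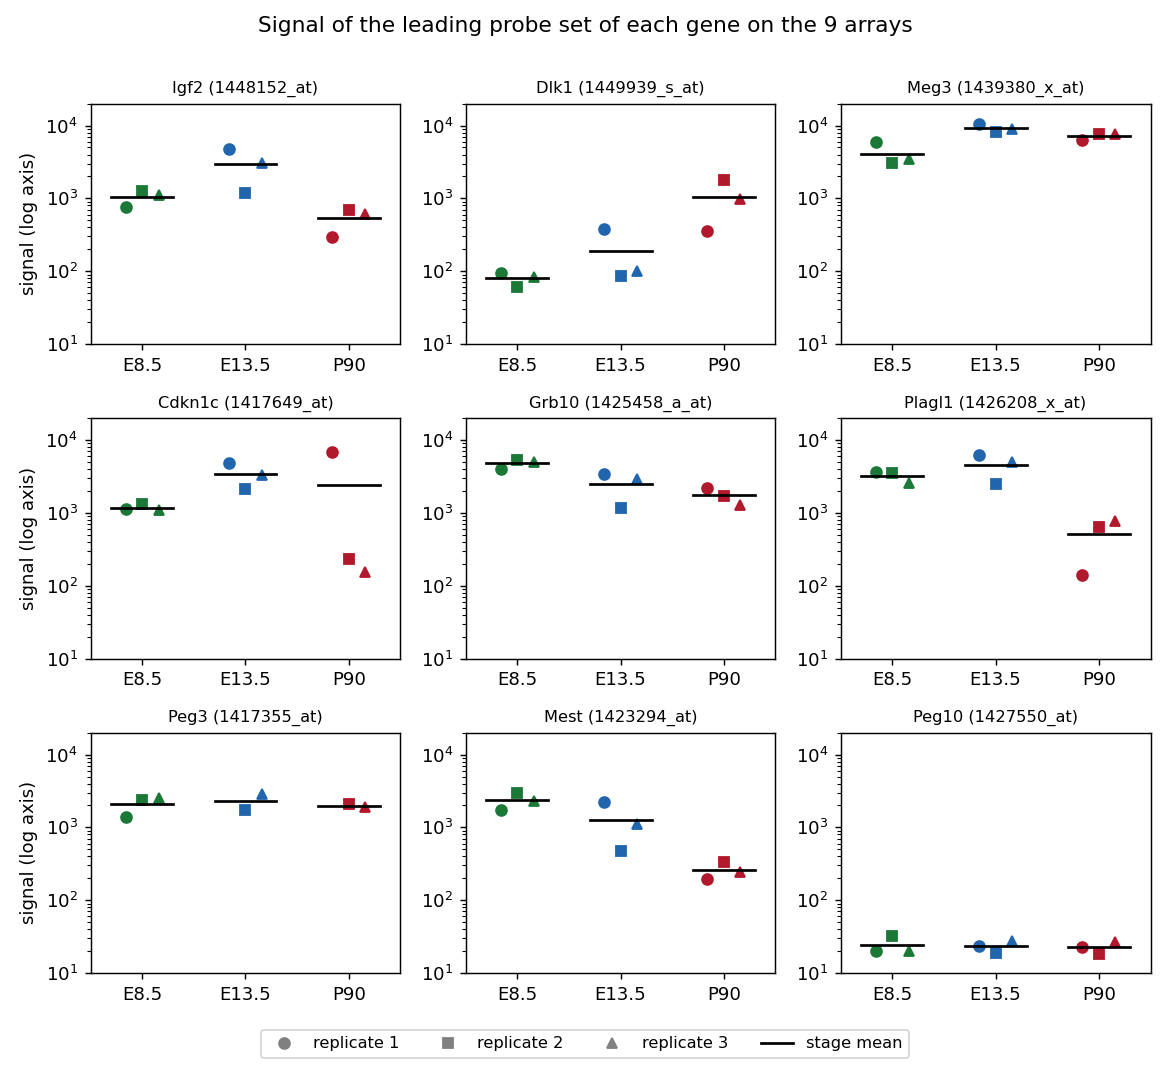
Signal (log axis) of the brightest probe set of each gene on the 9 arrays, by stage, with a line at the stage mean; 2 values of Peg3 were empty in the table. Mest, Igf2 and Plagl1 have their lowest stage at P90, Dlk1 its highest, and the 3 P90 arrays of Cdkn1c run from 153 to 6850.

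Insulin-like growth factor 2, encoded by Igf2, is the main growth factor of the fetus, and is expressed from the paternal copy. Its leading probe set (1448152_at) had signals of 750, 1277 and 1105 at E8.5, of 4724, 1194 and 3079 at E13.5, and of 293, 698 and 601 at P90. All P90 arrays lay below all others, as for 22.5% of all probe sets against E13.5 and 43.0% against E8.5 in either direction, while E13.5 replicate 2 lay inside the E8.5 range. Igf2 fell from E13.5 to P90 (log2 -2.34 ± 0.53, limma adjusted p = 0.0223). Its adjusted p rose past the threshold without E13.5 replicate 1 (0.0676), without E13.5 replicate 3 (0.105), without P90 replicate 1 (0.0534) and without P90 replicate 3 (0.0514), the log2 change staying between -2.9 and -1.91 over the 9 fits that each left out an array. With only the 6 arrays compared, the fall also missed the threshold (limma adjusted p = 0.0777). The change from E8.5 to E13.5 was 1.33 ± 0.53 (limma adjusted p = 0.129), and without E13.5 replicate 2 it was 1.89 ± 0.45 and passed (0.0173). This change also passed with quantile normalization (log2 1.46, limma adjusted p = 0.0361) and with the Actb difference as a covariate (log2 1.43, limma adjusted p = 0.0344). E8.5 and P90 did not differ past the threshold (log2 -1.01 ± 0.53, limma adjusted p = 0.212), and without P90 replicate 1 the change was -0.64 ± 0.54 (0.433). The other probe set, 1415931_at, was dim (26.3 to 84.9) and passed in no comparison, with P90 at 31.2, 36.7 and 26.3 below every E13.5 array.

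Summed signals of mesenchyme markers, like Igf2, were highest on E13.5 replicates 1 and 3, as were those of sensory neuron and of Schwann and satellite glia markers, 3 of the 11 marker lists. Of 16 mesenchyme genes listed, the 11 without an empty value summed to 2496 to 3559 at E8.5 and to 16740, 5808 and 10180 at E13.5, where the order of the 3 arrays was that of Igf2. The sums of 7 of the 11 lists had this order at E13.5, the others being those of sensory neurons, glia, chromaffin cells, adrenal cortex, endothelium and muscle, and the 3' to 5' difference of Actb had the opposite order (0.85, 7.0 and 2.87). Col1a1 and Col3a1 were empty on every E13.5 array, so they gave no level there. At P90 the sums of 2704 to 9500 were highest on replicate 1, the array with the lowest Igf2 signal. In tissue RNA, fewer cells of a type and less RNA per cell cannot be told apart, and the part of mesenchyme, of any other listed cell type or of RNA degradation in the Igf2 values was not tested.

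H19, a maternally expressed RNA that encodes no protein, lies next to Igf2 on chromosome 7, with 1 annotated gene between them. The microRNA gene Mir675 lies within H19, and the array's probe set 1448194_a_at carried both symbols, so no level is given to either. Both mature forms of Mir675 in RefSeq (GRCm38.p6; chromosome 7, minus strand, chr7:142577112-142577133 for 5p and chr7:142577078-142577099 for 3p) are shown because they are the other RNA behind that listing, with the seed, bases 2 to 8, in capitals.
mmu-miR-675-5p: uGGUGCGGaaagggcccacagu
mmu-miR-675-3p: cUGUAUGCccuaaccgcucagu
The probe set had signals of 3887, 5122 and 4578 at E8.5, of 6238, 5775 and 5972 at E13.5, and of 71.4, 62.5 and 143.7 at P90. All 3 P90 arrays lay far below the 6 embryonic ones, P90 replicate 1 included. Of the fitted probe sets with 1 symbol, 22.5% had no overlap between E13.5 and P90 and 43.0% between E8.5 and P90. In a fit extended to probe sets with several symbols, chosen after seeing the data, it fell by 5.86 on the log2 scale from E13.5 to P90 (SE 0.36, limma adjusted p = 6.1e-05), and it fell by 5.45 from E8.5 to P90 (SE 0.36, limma adjusted p = 8.82e-06). From E8.5 to E13.5 it did not pass (log2 0.41 ± 0.36, limma adjusted p = 0.526). Its fall to P90 was larger than that of any member probe set in the same comparison.

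Dlk1 and Meg3 are neighbours on chromosome 12 with 2 annotated genes between them. Dlk1, from the paternal copy, encodes a membrane protein related to Notch ligands that marks progenitors and is also made by adrenal cells; Meg3, from the maternal copy, is a long non-coding RNA of neurons and endocrine cells. Their promoters, the 250 bases before and 50 after the first annotated start in RefSeq (GRCm38.p6, plus strand), are shown since this pair held all of the members' higher calls, with each CpG, the base pair that carries DNA methylation, in capitals.
Dlk1 promoter, chr12:109452573-109452872: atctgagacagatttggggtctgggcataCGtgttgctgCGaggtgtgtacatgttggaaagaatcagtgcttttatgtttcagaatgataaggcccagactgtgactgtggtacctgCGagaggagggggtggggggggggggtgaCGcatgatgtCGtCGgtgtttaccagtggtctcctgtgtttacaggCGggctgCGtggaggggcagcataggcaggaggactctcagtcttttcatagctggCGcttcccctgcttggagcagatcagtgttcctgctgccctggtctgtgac
Meg3 promoter, chr12:109540746-109541045: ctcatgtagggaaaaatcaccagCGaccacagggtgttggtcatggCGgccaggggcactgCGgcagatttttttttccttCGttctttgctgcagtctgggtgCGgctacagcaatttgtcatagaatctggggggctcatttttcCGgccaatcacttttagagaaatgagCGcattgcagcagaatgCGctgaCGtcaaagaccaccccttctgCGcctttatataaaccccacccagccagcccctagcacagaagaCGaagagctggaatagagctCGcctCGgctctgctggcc
The Dlk1 window has 9 CpG and the Meg3 window 13, against a median of 7 over 32851 mouse promoters of this length. The Meg3 window holds 2 matches to the TATA box letters TATAAA (both strands searched, matches may overlap), and 13.6% of all promoters hold at least 1. Both lie in the stretch tttatataaa and overlap. The first, at -29 from the start, is on the opposite strand (tttata as printed), and the other reads TATAAA as printed. The Dlk1 window has none. Neither methylation nor factor binding was measured here.

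Dlk1 was highest in the adrenal medulla. Its leading probe set (1449939_s_at) had signals of 95.6, 61.4 and 83.9 at E8.5, of 376, 87.1 and 102 at E13.5, and of 353, 1784 and 989 at P90. The P90 arrays lay above every E8.5 array (43.0% of all probe sets have no overlap between these stages), and P90 replicate 1 lay just below E13.5 replicate 1. Dlk1 rose from E8.5 to P90 (log2 3.2 ± 0.62, limma adjusted p = 0.00444), and this call held in all 22 alternatives, with an adjusted p of 0.0237 at most. E8.5 and E13.5 did not differ past the threshold (log2 0.82 ± 0.62, limma adjusted p = 0.455).

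The rise of Dlk1 from E13.5 to P90 passed narrowly (log2 2.38 ± 0.62, limma adjusted p = 0.0429). It was lost without E8.5 replicate 1, 2 or 3 (adjusted p from 0.0662 to 0.0734), without E13.5 replicate 2 (0.0854), without E13.5 replicate 3 (0.181), without P90 replicate 2 (0.153) and without P90 replicate 3 (0.128). Without P90 replicate 1 it was 3.0 ± 0.57 and kept (limma adjusted p = 0.00947). The P90 array with the lowest Dlk1 signal was the one with the lowest sum over the chromaffin genes. It also had the highest sum over the adrenal cortex genes, nearly all of it from Fdx1. The other probe set, 1442724_at, was not fitted: it had 83.1 on P90 replicate 1, empty values on both other P90 arrays, and 10.5 to 22.4 on the embryonic arrays.

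Meg3 rose between E8.5 and E13.5 over most of its probe sets. Of 11 probe sets, 8 rose and 3 did not pass, and the 11 changes ran from 0.43 to 4.16 with a median of 2.57. Between E13.5 and P90, 0 of 11 passed with limma, with changes of -0.9 to 1.41, and 0 of 11 also had an unadjusted p under 0.05. The sign of that change turned for 3 of them without E13.5 replicate 2 and for 5 without P90 replicate 1, so no direction is given. Between E8.5 and P90, 6 of 11 rose and the changes ran from 0.61 to 3.26, with a median of 1.95. These probe sets read a single gene, and so are not separate results.

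The brightest Meg3 probe set (1439380_x_at) had signals of 5871, 3018 and 3457 at E8.5, of 10430, 8051 and 8873 at E13.5, and of 6309, 7731 and 7631 at P90. The 3 stages did not overlap on it, with E13.5 highest and E8.5 lowest. Of all probe sets, 34.4% had no overlap between E8.5 and E13.5, 22.5% between E13.5 and P90 and 43.0% between E8.5 and P90. It rose by 1.2 ± 0.3 from E8.5 to E13.5 (limma adjusted p = 0.0212), a call lost without E8.5 replicate 2 (0.111), without E8.5 replicate 3 (0.094), without E13.5 replicate 1 (0.0562) and without E13.5 replicate 3 (0.0726). From E8.5 to P90 it missed the threshold (log2 0.86 ± 0.3, limma adjusted p = 0.0649), and passed without E8.5 replicate 1 (0.0325), without E13.5 replicate 2 (0.0458) and without P90 replicate 1 (0.0498). E13.5 and P90 did not differ past the threshold (log2 -0.33 ± 0.3, limma adjusted p = 0.631). By Affymetrix's naming, a probe set ending in _x_at can hold probes that match other transcripts, and one ending in _s_at probes shared by several.

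The probe set of the largest Meg3 change was 1429256_at, which has neither ending. Its signals were 88.7, 60.7 and 67.6 at E8.5, 2780, 796 and 1674 at E13.5, and 252, 1640 and 1312 at P90. Every E13.5 and P90 array lay above every E8.5 array (no overlap with E8.5 for 34.4% of all probe sets at E13.5 and 43.0% at P90). The change to E13.5 was 4.16 ± 0.67 (limma adjusted p = 0.00213) and to P90 3.26 ± 0.67 (limma adjusted p = 0.00587), and both calls held in the 21 alternatives that fitted it. The calls of 1428765_at (log2 3.77 ± 0.72 to E13.5 and 3.14 ± 0.72 to P90, limma adjusted p = 0.00523 and 0.0102) and of 1452906_at (2.11 ± 0.36 and 1.91 ± 0.36, limma adjusted p = 0.0029 and 0.00368) also held in the 21 alternatives.

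The other Meg3 probe sets that rose to E13.5 were 1452183_a_at, 1429257_at, 1426758_s_at and 1428764_at, with changes of 2.57 to 2.72 and limma adjusted p of 0.0132 to 0.0476. With each array left out in turn they kept the call in 6, 3, 2 and 4 of 9 fits, with an adjusted p of 0.17 at most. The call of 1429257_at was among those lost without E13.5 replicate 2 (limma adjusted p = 0.0758). Of these 4 probe sets, 1452183_a_at, 1426758_s_at and 1428764_at also rose from E8.5 to P90 (log2 2.16 to 2.86, limma adjusted p = 0.0217 to 0.0365) and kept that call in 5, 4 and 4 of 9 fits. Against E8.5 at P90, 1429257_at passed without P90 replicate 1 (log2 3.09, limma adjusted p = 0.00157), the array on which it read 216 against 2507 and 2475.

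The Meg3 probe sets that did not pass at E13.5 were 1452905_at (log2 0.86 ± 0.35, limma adjusted p = 0.137), 1436057_at (0.43 ± 0.48, 0.634) and 1436713_s_at (0.54 ± 0.81, 0.738). Without E13.5 replicate 2, 1452905_at passed (log2 1.13, limma adjusted p = 0.0406), while 1436057_at (0.98, 0.104) and 1436713_s_at (1.48, 0.18) moved up and still missed the threshold. Of the same probe sets, 1452905_at and 1436713_s_at missed the threshold from E8.5 to P90 (log2 0.95 and 1.95, limma adjusted p = 0.0821 and 0.115) and passed without E13.5 replicate 2 (0.0367 and 0.0362). From E13.5 to P90, 1436713_s_at passed without E13.5 replicate 1 (log2 2.44, limma adjusted p = 0.0371). On E13.5 replicate 2, 1436713_s_at read 13.3, against 427 and 78.6 on the other arrays of the stage. The median over the 11 probe sets was 319, 168 and 213 on the E8.5 arrays, 2535, 831 and 1674 on the E13.5 arrays, and 437, 1902 and 1903 on the P90 arrays. P90 replicate 1 was the lowest P90 array in the median of Meg3, as it was for Dlk1.

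**Figure D3:**
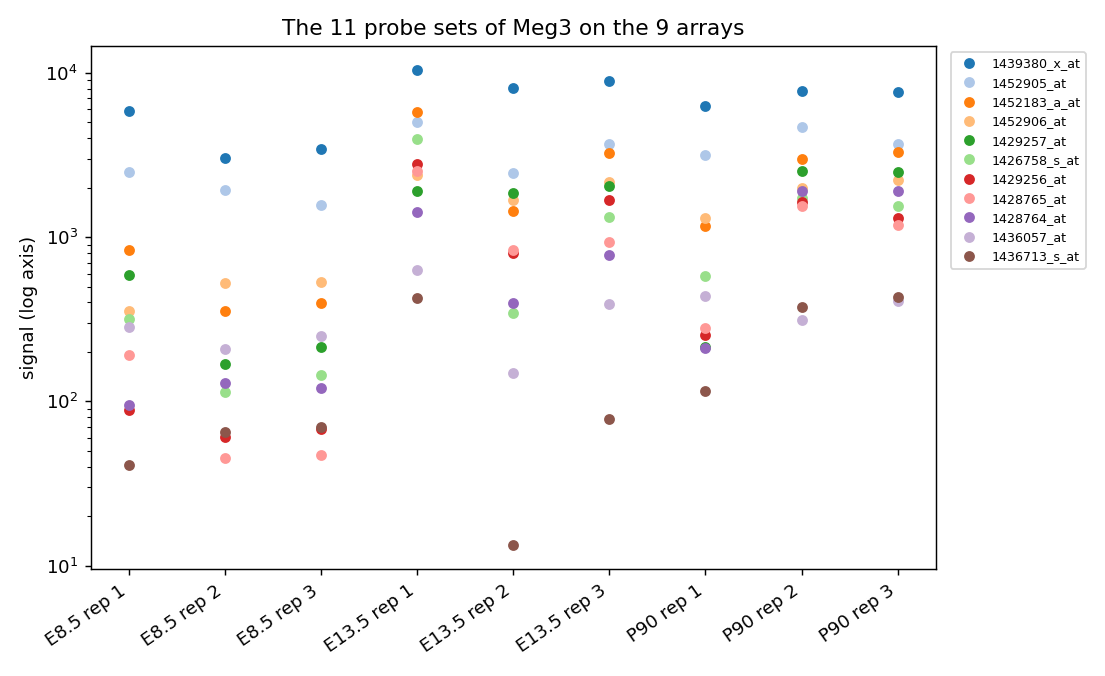
Signal (log axis) of each of the 11 Meg3 probe sets on the 9 arrays, 1 colour per probe set. The lowest values of most probe sets are at E8.5, where the array medians are 168 to 319, and several probe sets dip on E13.5 replicate 2 (median 831) and on P90 replicate 1 (median 437).

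Grb10 encodes an adaptor that binds the insulin and insulin-like growth factor receptors and restrains growth; it is expressed from the maternal copy in most tissues and from the paternal copy in neurons. Its leading probe set (1425458_a_at) had signals of 4012, 5340 and 5045 at E8.5, of 3447, 1180 and 2950 at E13.5, and of 2228, 1729 and 1279 at P90. All E8.5 arrays lay above all later ones, and the E13.5 and P90 arrays overlapped. No overlap with E8.5 was found for 34.4% of all probe sets at E13.5 and 43.0% at P90, in either direction. Grb10 fell from E8.5 to P90 (log2 -1.48 ± 0.43, limma adjusted p = 0.0308). The call was lost without E8.5 replicate 1 (0.0629), without E8.5 replicate 2 (0.114), without E8.5 replicate 3 (0.0981), without P90 replicate 2 (0.0903) and without P90 replicate 3 (0.103). It was also lost when no dim probe set was filtered out (0.0545). The F-test for any difference between stages did not call this probe set (limma adjusted p = 0.0588).

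The E13.5 level of Grb10 did not differ past the threshold from E8.5 (log2 -1.05 ± 0.43, limma adjusted p = 0.134) or from P90 (log2 -0.43 ± 0.43, limma adjusted p = 0.671). Without E13.5 replicate 2, the lowest E13.5 array, the first of these was -0.58 ± 0.32 (limma adjusted p = 0.281) and the second -0.9 ± 0.32 (0.11). The first passed with quantile normalization (log2 -0.86, limma adjusted p = 0.00851) and with the Actb difference as a covariate (log2 -0.94, limma adjusted p = 0.0157). The second passed with E13.5 replicate 2 and P90 replicate 1 both left out (log2 -1.09, limma adjusted p = 0.0131). The second fitted probe set, 1430164_a_at, had 352, 74.3 and 79.6 at E8.5, 25.7, 59.2 and 38.1 at E13.5, and 51.3, 69.6 and 83.5 at P90, and passed in no comparison. It was lower at E13.5 than at E8.5 with both arrays left out (log2 -1.63, limma adjusted p = 0.0469) and with the Actb covariate (log2 -1.53, limma adjusted p = 0.0124). A further one, 1425457_a_at, had stage means of 6.54 to 13.2 and was too dim to be fitted.

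Cdkn1c encodes p57, a cyclin-dependent kinase inhibitor that takes cells out of the cycle, from the maternal copy. Its probe set (1417649_at) had signals of 1136, 1315 and 1098 at E8.5, of 4825, 2102 and 3327 at E13.5, and of 6850, 236 and 153 at P90. Every E13.5 array lay above every E8.5 array (34.4% of all probe sets have no overlap between these stages), while the P90 arrays held both the highest and the lowest values of all 9. Cdkn1c passed in no comparison (log2 1.44 ± 1.09, -2.29 ± 1.09 and -0.85 ± 1.09, limma adjusted p = 0.449, 0.281 and 0.631, in the order of the comparisons above). In that fit all stages share 1 estimate of the spread, P90 included. With only the 6 arrays compared, the change from E8.5 to E13.5 passed (log2 1.44, limma adjusted p = 0.0348), and the other comparisons did not.

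Without P90 replicate 1 the SE of Cdkn1c from E8.5 to E13.5 went from 1.09 to 0.38 and all 3 comparisons passed. It was then higher at E13.5 than at E8.5 (log2 1.44 ± 0.38, limma adjusted p = 0.0249) and lower at P90 than at E13.5 (log2 -3.98 ± 0.43, limma adjusted p = 0.000435) and than at E8.5 (log2 -2.53 ± 0.43, limma adjusted p = 0.00207). Without P90 replicate 3 the change from E8.5 to P90 was 0.14, the opposite sign.

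P90 replicate 1, the array of the high Cdkn1c signal, also had the highest adrenal cortex sum and the lowest chromaffin sum of its stage. Of 13 adrenal cortex genes listed, the 4 without an empty value summed to 102 to 210 at E8.5, 208 to 1152 at E13.5 and 4171 to 8256 at P90. Nearly all of the P90 sums came from 1 gene, Fdx1, with 8170, 4790 and 4150. They are therefore not a joint reading of 4 genes. Of the other cortex genes checked, Scarb1 had 7160 and 3300 on P90 replicates 1 and 2 and an empty value on replicate 3. It was at most 678 on the embryonic arrays. Cyp11a1 was dim, with 73.2, 26.2 and 16.3 at P90, and the brightest probe set of Cyp21a1 was empty there. Star, Hsd3b1 and Cyp11b1, which define steroid-making cells, were empty on every P90 array. An empty value gives no level, so they cannot be read as low there. Of 12 chromaffin genes, the 8 without an empty value summed to 454 to 485 at E8.5, 1512 to 4048 at E13.5 and 12750 to 27130 at P90. The part of either cell type in the Cdkn1c values was not tested.

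**Figure D4:**
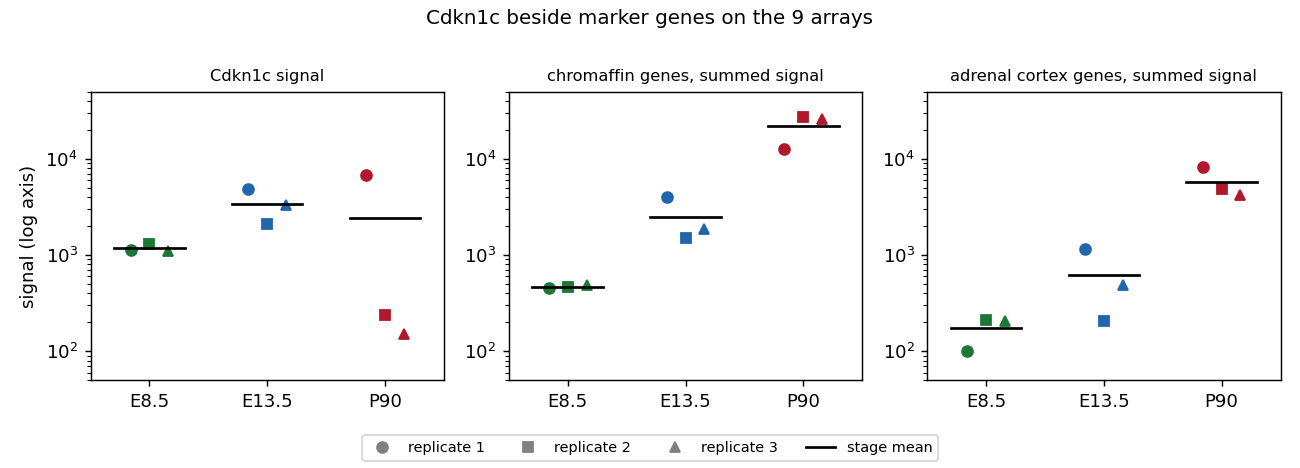
Signal of Cdkn1c and summed signals of 8 chromaffin and 4 adrenal cortex genes on the 9 arrays (log axis), with a line at the stage mean. P90 replicate 1 is the highest P90 array for Cdkn1c (6850) and adrenal cortex (8256) and the lowest for chromaffin genes (12750). The cortex sum at P90 is nearly all Fdx1 (8170 on replicate 1).

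Plagl1, paternally expressed, encodes a zinc finger transcription factor known to regulate a network of imprinted genes that includes Igf2, H19 and Cdkn1c. Its promoter (RefSeq, GRCm38.p6, plus strand) is shown because Plagl1 had the largest fall of any leading member probe set from E13.5 to P90. Of the members with a single annotated start here, Dlk1, Peg3 and Plagl1, it also has the most CpG, again in capitals. Grb10, with more than 1 start, has a promoter with 45 CpG.
Plagl1 promoter, chr10:13090582-13090881: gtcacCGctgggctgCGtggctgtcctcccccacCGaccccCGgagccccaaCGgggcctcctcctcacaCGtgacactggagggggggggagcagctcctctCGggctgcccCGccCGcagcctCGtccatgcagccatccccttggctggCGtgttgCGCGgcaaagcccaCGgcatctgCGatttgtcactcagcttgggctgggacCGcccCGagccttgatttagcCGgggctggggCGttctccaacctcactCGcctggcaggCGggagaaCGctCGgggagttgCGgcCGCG
It holds 26 CpG, and 83.1% of mouse promoters hold fewer. The GC palindrome GGGGCCCC, searched as a core of PLAGL1 binding sites, is absent from this window and found in 1.08% of all promoters; among the 14 promoters of 7 members, it lies in that of Peg3 alone, at -201.

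The Plagl1 signal was high in both embryonic stages and low in the adult medulla. Its leading probe set (1426208_x_at) had signals of 3588, 3565 and 2538 at E8.5, of 6238, 2501 and 4992 at E13.5, and of 142, 635 and 770 at P90. No P90 array reached any embryonic one, and the embryonic stages overlapped. No overlap with P90 was found for 22.5% of all probe sets at E13.5 and 43.0% at E8.5, in either direction. It fell from E13.5 to P90 (log2 -3.31 ± 0.59, limma adjusted p = 0.00596), and P90 was also lower than E8.5 (log2 -2.89 ± 0.59, limma adjusted p = 0.00539). Both calls held in all 22 alternatives, with an adjusted p of 0.0384 and 0.0266 at most. E8.5 and E13.5 did not differ past the threshold (log2 0.42 ± 0.59, limma adjusted p = 0.716). That change was 0.8 ± 0.6 without E13.5 replicate 2 (limma adjusted p = 0.435), and it passed with P90 replicate 1 left out as well (0.8 ± 0.25, limma adjusted p = 0.0405).

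A second Plagl1 probe set, 1438588_at, had 121, 43.6 and 22.3 at E8.5, 81.3, 120 and 115 at E13.5, and 22.9, 23.3 and 15.5 at P90. It too fell from E13.5 to P90 (log2 -1.72 ± 0.4, limma adjusted p = 0.0249), a call lost without E13.5 replicate 3 (0.106), without P90 replicate 2 (0.0671) and without P90 replicate 3 (0.0949). Against E8.5 neither later stage differed past the threshold, but P90 was lower without E8.5 replicate 3 (log2 -1.31, limma adjusted p = 0.0461) and E13.5 higher without E8.5 replicate 1 (log2 1.33, limma adjusted p = 0.018). The third, 1450533_a_at, was above the filter on 1 array and was not fitted.

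Mest, paternally expressed and once named Peg1, encodes a protein of the endoplasmic reticulum related to hydrolases and is abundant in embryonic mesoderm. Its probe set (1423294_at) had signals of 1739, 3007 and 2319 at E8.5, of 2262, 478 and 1111 at E13.5, and of 196, 336 and 246 at P90. The P90 arrays lay below all others, as for 22.5% of all probe sets against E13.5 and 43.0% against E8.5 in either direction. E13.5 overlapped E8.5 through replicate 1. Mest fell from E8.5 to P90 (log2 -3.1 ± 0.53, limma adjusted p = 0.00204), a call that held in all 22 alternatives with an adjusted p of 0.0139 at most.

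The step of Mest from E13.5 to P90 was less firm (log2 -2.01 ± 0.53, limma adjusted p = 0.043). It kept its call in 11 of 22 alternatives, and of the 9 fits that each left out an array only the one without E13.5 replicate 2 kept it (log2 -2.57 ± 0.43, limma adjusted p = 0.00469); the others gave an adjusted p of 0.0609 to 0.148. The change from E8.5 to E13.5 was -1.1 ± 0.53 (limma adjusted p = 0.21), and it depended on the E13.5 arrays. Without E13.5 replicate 2 it was -0.53 ± 0.43 (limma adjusted p = 0.479), and without E13.5 replicate 1 it was -1.63 and passed (limma adjusted p = 0.0481).

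Peg3 encodes a paternally expressed zinc finger protein of the embryo, brain and endocrine tissues. Its leading probe set (1417355_at) had 1401, 2392 and 2574 at E8.5, 1748 and 2891 at E13.5, and 2073 and 1893 at P90, with the value of replicate 1 empty at both later stages. The 3 stages overlapped, and the log2 changes were 0.13 ± 0.43, -0.18 ± 0.47 and -0.05 ± 0.43 (limma adjusted p = 0.896, 0.897 and 0.954). A second probe set, 1433924_at, with no empty value, ran from 1745 to 2431 at E8.5, from 1166 to 5107 at E13.5 and from 569 to 2707 at P90, and also passed in no comparison. Without E13.5 replicate 2 the leading probe set gave 0.49 ± 0.48 from E8.5 to E13.5 and -0.54 ± 0.51 from there to P90 (limma adjusted p = 0.569 and 0.545). With P90 replicate 1 left out as well, 1433924_at was higher at E13.5 than at E8.5 (log2 0.99, limma adjusted p = 0.0177). The signs of several of these changes turned with an array left out or with quantile normalization, so no direction is given. The other 3 probe sets, 1417356_at, 1447731_at and 1447732_x_at, had stage means of 1.5 to 10.7 and were not fitted.

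Peg10, a paternally expressed gene derived from a retrotransposon and needed in the placenta, was dim throughout. Its probe set (1427550_at) ranged from 18.0 to 32.7 over the 9 arrays, near the filter of 26.1, which it passed on 3 arrays. It passed in no comparison, with changes of -0.03, -0.02 and -0.06 (SE 0.22 each, limma adjusted p = 0.953, 0.975 and 0.888), whose sign turned with single arrays left out.

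The other lists describe genes around the members, each by its brightest fitted probe set, with the share of all 13748 genes as background: 8.82% higher and 6.76% lower from E8.5 to E13.5, 3.18% and 5.4% from E13.5 to P90, and 10.3% and 11.8% from E8.5 to P90. Of 33 other imprinted genes, 1 rose and 1 fell from E8.5 to E13.5, 3 rose and 1 fell from E13.5 to P90, and 3 rose and 3 fell from E8.5 to P90, with medians of 0.16, -0.1 and 0.12 against 0.02, -0.05 and 0.0 for all genes. Ddc, imprinted in heart and otherwise the enzyme that makes dopamine, went from 96.3 ± 56.5 at E13.5 to 1842 ± 1110 at P90 (SD, n = 3 each; log2 3.89 ± 0.58, limma adjusted p = 0.0024). Nap1l5, a nucleosome assembly protein, rose from 28.2 ± 13 at E8.5 to 1392 ± 811 at P90 (SD, n = 3 each; log2 4.78 ± 0.64, limma adjusted p = 0.000695). Asb4, a ubiquitin ligase adaptor, fell from 189 ± 118 at E8.5 to 18.5 ± 5.02 at P90 (SD, n = 3 each; log2 -2.38 ± 0.46, limma adjusted p = 0.00431). These 3 calls held without any one array. Magel2 also fell from E8.5 to P90 (log2 -1.73 ± 0.46, limma adjusted p = 0.0207), but not without E8.5 replicate 2 (0.077), E8.5 replicate 3 (0.0605) or P90 replicate 3 (0.0726).

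Of 20 genes of the insulin-like growth factor axis, 3 rose and 4 fell from E8.5 to E13.5, 0 rose and 3 fell from E13.5 to P90, and 2 rose and 5 fell from E8.5 to P90, with medians of -0.02, -0.27 and -0.1. Igf1, the ligand of growth after birth, rose from 130 ± 74.5 at E8.5 to 1072 ± 572 at E13.5 (SD, n = 3 each; log2 2.9 ± 0.56, limma adjusted p = 0.00562). Igf2bp1, a protein that binds Igf2 messenger RNA, fell from 3151 ± 311 in the early embryo to 305 ± 142 in the ganglion and 13 ± 4.35 in the medulla (SD, n = 3 each; log2 -6.78 ± 0.41 over the whole span, limma adjusted p = 8.32e-06). Igfbp2, a binding protein of both ligands, stood at 856 ± 138, 660 ± 500 and 45.9 ± 2.05 (SD, n = 3 each) and fell from E13.5 to P90 (log2 -3.18 ± 0.49, limma adjusted p = 0.00281). Igfbp3, the main carrier of the ligands in blood, rose from 78.7 ± 5.17 at E8.5 to 340.5 ± 76.4 at P90 (SD, n = 3 each; log2 1.89 ± 0.4, limma adjusted p = 0.00638). These 4 calls held without any one array.

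Cdkn1c acts on the machinery of the cell cycle, in which more genes were called lower than higher. Of 24 G1 and S phase cyclins, kinases and inhibitors, 0 rose and 8 fell from E8.5 to E13.5, 0 rose and 2 fell from E13.5 to P90, and 2 rose and 9 fell from E8.5 to P90, with medians of -0.45, 0.0 and -0.54. Mki67, a marker of cycling cells, had 3639 ± 422 in the early embryo, 859.6 ± 290 in the ganglion and 51.8 ± 10.6 at P90 (SD, n = 3 each; log2 -5.76 ± 0.38 from E8.5 to P90, limma adjusted p = 8.96e-06). The cyclin gene Ccna2 fell from 2517 ± 321 to 86.4 ± 26.8 over the same span (SD, n = 3 each; log2 -4.65 ± 0.37, limma adjusted p = 1.8e-05). The 2 that rose were both inhibitors: Cdkn2c (log2 2.88 ± 0.52, limma adjusted p = 0.00293) and Cdkn2b (log2 1.84 ± 0.48, limma adjusted p = 0.0194), the latter not without any one of the E8.5 arrays (0.0521 to 0.0701).

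Of 18 genes that set or keep imprints, 1 rose and 5 fell from E8.5 to E13.5, 0 rose and 1 fell from E13.5 to P90, and 1 rose and 7 fell from E8.5 to P90, with medians of -0.73, -0.44 and -1.05. Uhrf1, which brings the maintenance DNA methyltransferase to newly copied DNA, fell at each step, to 279 ± 81.4 at E13.5 (SD, n = 3; log2 -3.05 ± 0.39, limma adjusted p = 0.000808) and to 15.8 ± 5.43 at P90 (SD, n = 3; log2 -3.19 ± 0.35, limma adjusted p = 0.00059); 1 of its E8.5 values was empty. Dnmt3b, a DNA methyltransferase that sets new marks, fell from 1363 ± 198 at E8.5 to 134 ± 26.9 at E13.5 (SD, n = 3 each; log2 -3.2 ± 0.33, limma adjusted p = 0.000197), while Dnmt3a rose from 216 ± 19.3 to 1520 ± 691 (SD, n = 3 each; log2 2.6 ± 0.43, limma adjusted p = 0.00235). These calls held without any one array.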

How the data were processed

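Biotinylated cRNA was made from 400 ng of RNA, per the labels' protocols. The deposited values are linear intensities, 1 per array for each probe set, none below 1. MAS5, GCOS, RMA and GCRMA appear in the submitters' processing notes, but how the authors scaled the table is not given in the sources used here. Why 8048 of 405909 values (1.98%) are empty is not given either. Only the 34945 of 45101 probe sets with 1 symbol in GEO's platform annotation were used. Log2(signal + 16) was fitted by probe set over all 9 arrays, with no further scaling (limma 3.58.1 in R 4.3.3; lmFit, eBayes with a variance trend, 6 residual degrees of freedom, two-sided; F-test for any difference), for probe sets above the 40th percentile (26.1) on at least 3 arrays with at least 2 values per stage. The fit was tested on simulated data. The members and lists were chosen with earlier results of these data known. Every member probe set was described; of other lists the 2 largest called rises and 2 largest called falls per comparison could be named, and the 2 genes most like each member over the 9 arrays. Alternatives were other pseudocounts, filters, scaling, variance models and rows, the Actb difference as a covariate, a replicate block and leaving out arrays. The small number of arrays limits the precision.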

Additional observations from a re-analysis of the deposited data

How the results depend on the processing

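Over 103 results and their 2203 refits, 1970 kept direction and side of the threshold, 148 lost a call, 43 gained one and 42 changed sign, none of the 42 past the threshold. Where a setting did not itself use fewer arrays or probe sets, the cause was not tested. The counts that follow are of 23 member probe sets. They are of 28 when no dim probe set was filtered out and of 9 with 1 probe set per gene. From E8.5 to E13.5, 8 member probe sets passed, with 4 when no dim probe set was filtered out (9.33% of all probe sets against 15.0%), 1 with 1 probe set per gene (16.5%), 14 with E13.5 replicate 2 and P90 replicate 1 both left out (23.5%; a setting chosen after seeing the data), and 3 to 9 when each array was left out in turn (8.16% to 17.8%). From E13.5 to P90, 5 passed (7.48%), with 2 when no dim probe set was filtered out (4.62%), 2 with only the 6 arrays compared (4.12%), and 1 to 4 with each array left out (3.46% to 10.6%). From E8.5 to P90, 10 passed (20.8%), with 4 with 1 probe set per gene (23.3%) and 6 to 13 with each array left out (12.7% to 26.2%). For any difference between stages, 12 passed (23.3%), with 6 with 1 probe set per gene (26.3%) and 7 to 15 with each array left out (14.4% to 29.3%). The labels do not say whether the replicate numbers pair samples across stages. Deviations of same-numbered arrays from their stage means correlated at -0.357 to 0.424, which cannot settle it with 3 arrays per stage. With the replicate number as a block, 6, 3, 10 and 11 passed in that order, Dlk1 and Mest from E13.5 to P90 being lost (limma adjusted p = 0.0755 and 0.0773).

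Signs changed in Peg3, Peg10, Cdkn1c and Meg3, only for changes that had not passed. The largest of these were -0.85 ± 1.09 for Cdkn1c from E8.5 to P90 and -0.78 ± 0.82 for Meg3 1429257_at from E13.5 to P90. For Peg3 (1417355_at), E13.5 against E8.5 was -0.14 with the replicate block and -0.23 to 0.49 with each array left out, and P90 against E13.5 was 0.18 with quantile normalization and -0.54 to 0.18 with each array left out. P90 against E8.5 was 0.69 with quantile normalization, 0.1 with the Actb covariate and -0.32 to 0.11 with each array left out. For Peg3 (1433924_at), E13.5 against E8.5 was -0.07 to 0.99 with each array left out, and P90 against E8.5 was 0.04 with quantile normalization, 0.27 with E13.5 replicate 2 and P90 replicate 1 both left out and -0.84 to 0.27 with each array left out. For Peg10, E13.5 against E8.5 was 0.05 with both arrays left out; with each array left out it was -0.11 to 0.11, P90 against E13.5 -0.11 to 0.07 and P90 against E8.5 -0.14 to 0.08. For Cdkn1c, P90 against E8.5 was -2.53 to 0.14 with each array left out. For Meg3 from E13.5 to P90, quantile normalization gave 0.32 for 1426758_s_at and 0.08 for 1452906_at, and leaving out both arrays gave 0.34 for 1429257_at, -0.46 for 1436057_at and -0.06 for 1452905_at. With each array left out, that change was -0.99 to 0.75 for 1426758_s_at, -0.23 to 1.31 for 1428764_at, -1.1 to 0.11 for 1428765_at, -1.35 to 0.37 for 1429257_at, -0.37 to 0.62 for 1436057_at, -0.94 to 0.06 for 1452183_a_at, -0.18 to 0.33 for 1452905_at and -0.35 to 0.03 for 1452906_at. From E8.5 to E13.5 it was -0.01 to 0.98 for 1436057_at and -0.48 to 1.48 for 1436713_s_at. The median of all probe sets moved by over 0.1 only from E13.5 to P90, from -0.02 to -0.25 with both arrays left out and to -0.15 without E13.5 replicate 2; under the other settings and comparisons it lay between -0.11 and 0.08. Changes of probe sets near the filter of 26.1, such as Peg10, are understated on this scale.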

Other observations

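The genes whose log2 signal followed each member's leading probe set most closely over the 9 arrays, among 11973 genes with no empty value, are given as a description, with no test; the 9 points share 3 stages and the same arrays. Igf2 was followed by Elovl4, an enzyme of very long fatty acids (Pearson r = 0.981), and Rtl6, derived from a retrotransposon (0.97); the stage means of Elovl4 were 78.3, 369 and 25.6. Plagl1 was followed by Tubb2b, a neuronal tubulin (0.979), with stage means of 3910, 6486 and 313, and by Syt13, a synaptotagmin (0.962). Meg3 was followed by Vamp2, a synaptic vesicle protein (0.974; stage means 46.4, 395 and 189), and Clec16a (0.966).

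Mest was followed by Cdc7, a kinase that starts DNA replication (r = 0.978; stage means 848, 487 and 146), and Gpc3, a glypican (0.977; 704, 361 and 59.8). Grb10 was followed by Dpy30, a subunit of histone methyltransferase complexes, and Eif1a, a translation initiation factor (0.997 each). Dlk1 was followed by S100a13 (0.97) and Fstl3, an activin-binding protein (0.969). Cdkn1c was followed by Wnt7b (0.986) and Kdm4a (0.951) (stage means 1297, 1680 and 1322 for Kdm4a). Peg10 was followed by Zfp433 (0.869) and Zfp81 (0.747), and Peg3 was not compared because of its empty values.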
